A study of Mus musculus with 4 samples.

Results

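Gene expression after doxorubicin was compared between cultures of primary mouse astrocytes labelled OASIS deficient and cultures labelled OASIS wild type. The comparison used 2 of the 4 libraries of the series, chosen by their genotype and treatment labels: 1 from OASIS-deficient cells with doxorubicin and 1 from OASIS wild-type cells with doxorubicin. Per the labels, both received 1 µg/ml doxorubicin for 1 h, 5 days after the cultures had become confluent, and RNA was taken after a further 24 h in drug-free medium. The remaining pair carries the same genotype labels without doxorubicin and shares no library with the first. All cultures grew in DMEM with 10% fetal bovine serum. The labels name the cells as glial and give neither the age and sex of the mice, nor the allele that removes OASIS, nor how many animals or cultures each library holds. With 1 library a group there was no replicate, so no p-value was computed, and ratios describe these libraries.

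OASIS is encoded by Creb3l1 and belongs to a family of transcription factors anchored in the membrane of the endoplasmic reticulum. After cleavage by site-1 and site-2 proteases (Mbtps1 and Mbtps2), its cytoplasmic part enters the nucleus, and it has been studied in astrocytes, bone and secretory cells. Doxorubicin traps topoisomerase II on DNA and leaves double-strand breaks. Broken DNA activates p53, which induces Cdkn1a (p21), an inhibitor of cyclin-dependent kinases, and cells with high p21 stop expressing the genes of DNA replication and mitosis. The comparison sets the libraries labelled deficient and wild type side by side under the doxorubicin label.

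Total counts were 22559613 in the wild-type doxorubicin library and 20171539 in the deficient one. Values are CPM, the count scaled to the size of the library with TMM factors that correct for composition, and each log2 ratio is deficient over wild type after adding 1 CPM to both. Genes averaging 1 CPM or more across the 4 libraries entered (15596 genes). It is called higher or lower in the deficient library when it differed at least 2-fold on that scale. Fold ratios are given without the added CPM, with exact conditional binomial 95% intervals that cover counting error only. A count of 0 was set to 3 counts, which gives folds written as "at least"; these are bounds of that floor alone, and the 95% interval reaches lower (to 792-fold for Aurkb, written as at least 975-fold).

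The labels were set against the data first. Creb3l1 (chr2:91982328-92024502, GRCm38) had 636 counts (27.8 CPM) in the wild-type doxorubicin library and 235 (11.9 CPM) in the deficient one, against 966 and 260 in the untreated pair. It was thus 2.34-fold lower with doxorubicin (95% interval 2.01 to 2.73) but not absent, and a whole-gene count does not show which exons the reads came from. Expression of p53 targets and mitotic genes followed the genotype labels in both pairs. Of 39 p53 targets, 0 differed 2-fold between the doxorubicin and untreated labels in wild-type cells (median log2 ratio 0.07) and 0 in deficient cells (median 0.06), where 4.08% and 1.58% of all genes were higher and 5.45% and 1.93% lower. Of 43 mitotic genes, 7 were higher and 6 lower under the doxorubicin label in wild-type cells, and 0 differed 2-fold in deficient cells. Xist, the RNA that silences an X chromosome, had 2547 and 2742 counts in both doxorubicin libraries and 1 and 0 in the untreated ones. The Y-linked Ddx3y, Eif2s3y, Kdm5d and Uty were at 0 in both doxorubicin libraries and had 353 to 1567 counts in the untreated ones. The doxorubicin pair is therefore alike in these sex-linked genes, whereas any contrast across treatment labels is not. The files hold no other check of the treatment labels, which may be wrong, so "with doxorubicin" stands for the label throughout.

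Astrocyte markers dominated the doxorubicin pair, at a summed 17120 CPM in the wild-type library and 22780 CPM in the deficient one, with 0 of 19 markers at 0. Microglial markers summed to 4785 and 3659 CPM, oligodendrocyte-lineage markers to 348 and 1091 CPM, and neuronal markers to 215 and 448 CPM. The cultures thus held RNA of other glia. In these bulk libraries, fewer cells of a type and less RNA per cell cannot be told apart.

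In the doxorubicin pair 1670 genes were higher in the deficient library (10.7% of those entered) and 1490 were lower (9.55%). The counts of list members below are to be read against these shares. The median log2 ratio was 0.02. Differences of at least 4-fold covered 405 genes upward (2.60%) and 333 downward (2.14%), and differences of at least 8-fold covered 123 (0.789%) and 79 (0.507%). Weakly expressed genes were called more often: 13.9% higher and 18.5% lower at a mean of 1 to 2 CPM, against 5.43% and 4.22% above 100 CPM. Among the whole lists plotted by group, those with medians farthest from 0 were mitosis and the oligodendrocyte lineage on the higher side, and p53 targets and the NRF2 and glutathione list on the lower side.

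**Figure D1:**
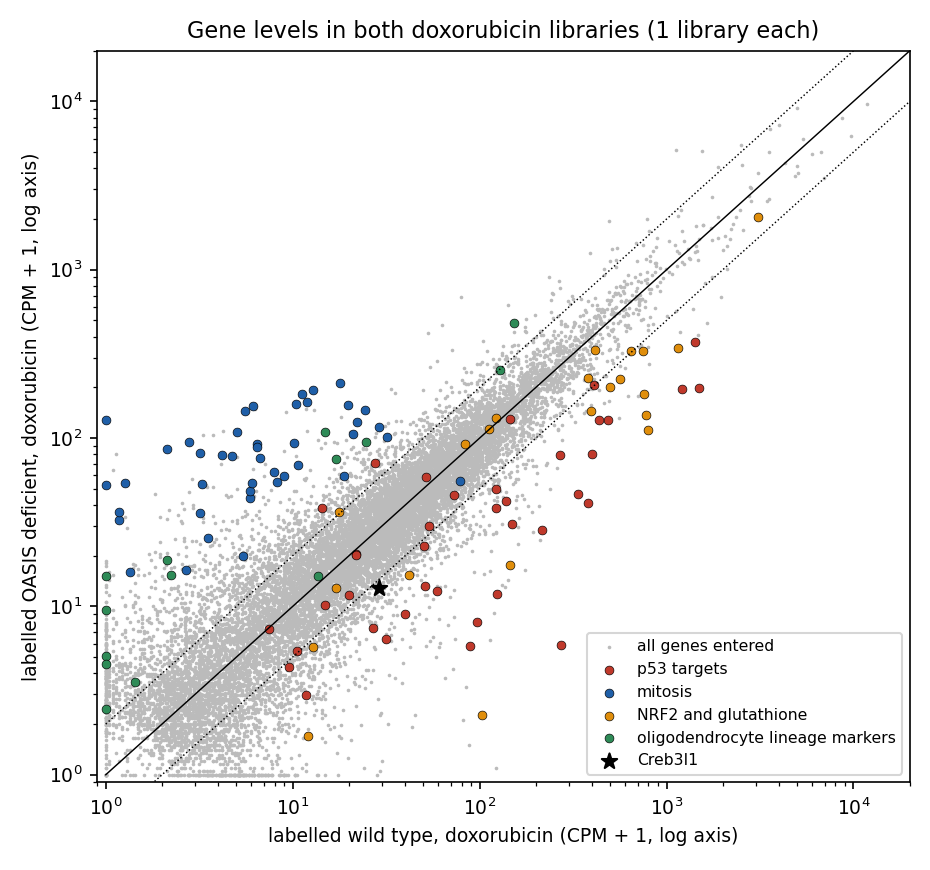
Levels of all 15596 genes in the wild-type (x axis) and deficient (y axis) doxorubicin libraries, as CPM + 1 on log axes, with members of 4 gene groups coloured. The solid line marks equal levels and the dotted lines a 2-fold difference on this scale. Mitotic genes lie above the upper dotted line except Pttg1, most p53 targets lie below the lower one, and Creb3l1 (star) lies just below it at 27.8 and 11.9 CPM.

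Promoter sequences of 3 members each of the mitosis and p53 target lists are shown. They were taken from members with large ratios whose promoter held the motif searched. Some members were left out of this choice, so those shown need not have the largest ratios of each list. Many mitotic promoters are known to carry CHR elements (TTTGAA), bound by the MuvB complexes that silence or activate them, with CCAAT boxes bound by NF-Y nearby. All sequences are the 250 bases before the transcription start, 5′ to 3′ on the strand of the gene, from RefSeq (GRCm38.p6). In the first set, capitals mark TTTGAA and CCAAT on either strand, so that the reverse strand reads TTCAAA and ATTGG. Kif2c is at chr4:117178773-117179022, minus strand, Ube2c at chr2:164769679-164769928, plus strand and Ccnb2 at chr9:70421555-70421804, minus strand.
Kif2c: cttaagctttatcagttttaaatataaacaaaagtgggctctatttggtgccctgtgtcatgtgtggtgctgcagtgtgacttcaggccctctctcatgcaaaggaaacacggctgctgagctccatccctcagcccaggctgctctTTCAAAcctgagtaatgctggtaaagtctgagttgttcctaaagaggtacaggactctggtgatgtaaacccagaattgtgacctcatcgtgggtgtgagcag
Ube2c: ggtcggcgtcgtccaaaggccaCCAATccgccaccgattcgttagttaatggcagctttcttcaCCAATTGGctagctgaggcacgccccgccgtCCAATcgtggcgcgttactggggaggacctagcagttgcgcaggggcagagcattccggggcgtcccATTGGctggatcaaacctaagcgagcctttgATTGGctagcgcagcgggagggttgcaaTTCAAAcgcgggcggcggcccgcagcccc
Ccnb2: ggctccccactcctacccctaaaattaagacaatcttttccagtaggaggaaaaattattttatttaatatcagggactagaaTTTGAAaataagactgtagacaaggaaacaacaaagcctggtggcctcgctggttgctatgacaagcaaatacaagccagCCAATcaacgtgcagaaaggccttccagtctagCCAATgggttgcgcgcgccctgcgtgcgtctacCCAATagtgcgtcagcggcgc

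The RefSeq start of Kif2c lies inside the gene as GENCODE draws it (chr4:117159639-117182639). Kif2c held TTCAAA from 103 to 98 bases before the start and no CCAAT. Ube2c held TTCAAA from 29 to 24 bases before the start and 6 CCAAT matches, 2 of which overlap on opposite strands, and Ccnb2 had TTTGAA from 167 to 162 bases before it with 3 CCAAT boxes. A promoter sequence was at hand for 11128 of the 15574 entered genes with a symbol, and a gene was counted when any of its listed promoters held the motif. TTTGAA was found for 12 of 35 mitotic genes (34.3%), against 12.7% of all genes, 20% of p53 targets and 14.8% of DNA replication genes. It was found for 29.8% of genes at least 8-fold higher and 13.2% of those at least 8-fold lower. At 2-fold the sides were closer, at 14.3% of higher and 12.7% of lower genes. CCAAT was found for 24 of 35 mitotic genes (68.6%) and for 40.5% of all genes, but also for 56.7% of p53 targets and 13 of 13 cholesterol synthesis genes. Genes at least 8-fold higher held it in 60.6% of cases and genes at least 8-fold lower in 49.1%. Both motifs stood together in 11 of 35 mitotic genes (31.4%) and in 5.93% of all genes. A match of letters is a description and not a site bound by a factor.

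The second set shows p53 targets, with capitals marking the p53 decamer, 1 of the pair of repeats that make up a p53 response element. Cdkn1a is at chr17:29090729-29090978, plus strand, Ccng1 at chr11:40755287-40755536, minus strand and Mdm2 at chr10:117710759-117711008, minus strand.
Cdkn1a: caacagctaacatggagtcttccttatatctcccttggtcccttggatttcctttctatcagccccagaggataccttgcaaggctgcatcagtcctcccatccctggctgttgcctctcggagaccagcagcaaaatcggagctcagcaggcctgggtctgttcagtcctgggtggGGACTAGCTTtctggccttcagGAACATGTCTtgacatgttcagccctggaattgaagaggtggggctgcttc
Ccng1: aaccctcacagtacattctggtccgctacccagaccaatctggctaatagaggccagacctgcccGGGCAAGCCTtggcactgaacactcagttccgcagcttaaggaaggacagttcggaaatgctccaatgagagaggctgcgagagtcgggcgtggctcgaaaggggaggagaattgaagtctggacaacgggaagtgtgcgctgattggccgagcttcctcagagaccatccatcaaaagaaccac
Mdm2: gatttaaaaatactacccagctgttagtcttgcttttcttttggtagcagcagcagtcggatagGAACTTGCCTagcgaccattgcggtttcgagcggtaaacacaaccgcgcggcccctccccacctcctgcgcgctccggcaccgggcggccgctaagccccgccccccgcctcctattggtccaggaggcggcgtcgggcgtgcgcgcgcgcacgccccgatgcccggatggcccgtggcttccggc

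In Cdkn1a, GGACTAGCTT from 73 to 64 and GAACATGTCT from 51 to 42 bases before the start stand within the 13 bases of spacing allowed for a pair. The bases directly after GAACATGTCT, tgacatgttc, miss the decamer pattern in their first base and were not counted. The RefSeq start used here lies at the outer edge of the gene as GENCODE draws it (chr17:29090976-29100727). The decamer was found for 11 of 30 p53 targets with a promoter (36.7%) and for 7.4% of all genes. It was also found for 4 of 13 cholesterol synthesis genes (30.8%) and 5 of 35 mitotic genes (14.3%). Genes at least 2-fold lower held it in 8.61% of cases and genes at least 2-fold higher in 7.18%. A pair of decamers was found in 1 of the 30 p53 targets, Cdkn1a, and in 6 of all 11128 genes (0.0539%). Many p53 response elements lie farther upstream or in introns, outside this window.

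p53 targets were lower in the deficient doxorubicin library: 26 of the 39 measured were at least 2-fold lower and 2 were higher, with a median log2 ratio of -1.78, against 9.55% and 10.7% of all genes and a median of 0.02. The untreated pair gave the same number, 26 lower, where 10.2% of all genes were lower and 9.79% higher. The list was written with earlier results of these libraries known, so its direction is a description.

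Among arrest genes, 7 of 9 were lower. Cdkn1a (chr17:29090976-29100727) had 34221 counts (1495 CPM) in the wild-type library and 3926 (198.5 CPM) in the deficient one, a 7.53-fold difference (95% interval 7.28 to 7.78). Its untreated values were 25804 and 3204 counts, so both wild-type libraries were high and both deficient ones low. Plk2, a polo-like kinase of the stress response, had 8692 and 796 counts (9.43-fold lower, 8.77 to 10.2). Btg2, an antiproliferative cofactor of mRNA decay, had 3395 and 587 counts (5.00-fold lower, 4.58 to 5.46). Zmat3, Rprm, Phlda3 and Sfn were lower with log2 ratios of -1.31 to -1.99. The 2 members not called were Gadd45a, with 1160 and 1134 counts and a log2 ratio of 0.18, and Plk3, at -0.55.

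Feedback regulators of p53 were lower in 3 of 4 cases. Mdm2, the ubiquitin ligase that removes p53, had 9150 counts (399.6 CPM) in the wild-type library and 1572 (79.5 CPM) in the deficient one. Ccng1, cyclin G1, had 27673 and 3844 counts (6.22-fold lower, 6.01 to 6.43), and Trp53inp1 had 4928 and 544 (7.83-fold lower, 7.16 to 8.57). The phosphatase gene Ppm1d, at 1197 and 578 counts, had a log2 ratio of -0.82. Trp53 itself, which encodes p53 and is not among its targets here, had 2712 and 1743 counts (118 and 88.1 CPM, log2 ratio -0.42).

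Of 12 apoptosis genes, 9 were lower and the other 3 had ratios below 0. Pmaip1 (chr18:66458533-66465565), which encodes the BH3-only protein NOXA, had 6197 counts (270.6 CPM) in the wild-type library and 97 (4.90 CPM) in the deficient one. This 55.2-fold difference (45.2 to 68.2) was the largest of the p53 list, and the untreated libraries had 4782 and 89 counts. Perp, a desmosome-associated membrane protein, had 2000 and 96 counts (18-fold lower, 14.7 to 22.3). The death receptor genes Eda2r (2825 and 215 counts, 11.3-fold lower) and Tnfrsf10b (894 and 159, 4.86-fold lower) were also lower. The receptor Fas was not, at 3313 and 2566 counts and a log2 ratio of -0.16. Bax, which permeabilizes mitochondria, had 9331 and 4050 counts and lay at the threshold with a log2 ratio of -0.99.

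Repair and nucleotide-supply targets differed less, with 1 of 4 lower (Polk, a translesion polymerase, log2 ratio -1.15). Ddb2 and Xpc, which recognize UV lesions, had log2 ratios of -0.03 and -0.10. Both targets called higher were metabolic genes. Sesn1 had 610 counts in the wild-type library and 1394 in the deficient one (2.65-fold higher, 2.40 to 2.91), and Pank1, a pantothenate kinase of coenzyme A synthesis, had 304 and 744 (2.83-fold higher, 2.48 to 3.25). Sesn2, a paralog of Sesn1 that restrains mTORC1, differed the other way, at 7669 and 895 counts (7.40-fold lower, 6.91 to 7.94). The secreted Gdf15 had 2193 and 139 counts (13.6-fold lower, 11.5 to 16.3), and Ephx1, microsomal epoxide hydrolase, 32585 and 7292 (3.86-fold lower, 3.76 to 3.96). Gls2 had 2 and 8 counts and did not enter.

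Mitotic genes were higher in the deficient library in 42 of 43 cases, against 10.7% of all genes. Their median log2 ratio was 3.56 (11.8-fold). All 42 were also called higher in the untreated pair (median 3.24), where 9.79% of all genes were higher. The folds of the scarcest, such as Nek2, rest on few counts in the wild-type library.

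All 8 kinases, cyclins and phosphatases of mitotic entry were higher. Cdk1, the kinase that drives mitosis, had 385 counts (16.8 CPM) in the wild-type library and 4202 (212 CPM) in the deficient one, a 12.6-fold difference (95% interval 11.4 to 14.1). Its cyclins Ccna2 (251 and 3217 counts), Ccnb1 (215 and 3129) and Ccnb2 (73 and 1539) differed 14.8-fold, 16.8-fold and 24.4-fold. The largest ratios of this role belonged to kinases: Nek2 had 6 and 1047 counts, and Plk1 26 and 1684 (75-fold, 51.0 to 115). Nek2 and Plk1 had 86 and 78 counts in the untreated wild-type library, more than in the doxorubicin one.

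Chromosomal passenger genes, whose products correct faulty attachments to the spindle, were higher in 4 of 4 cases. Aurkb (chr11:69045647-69051664), the kinase of this complex, had 0 counts in both wild-type libraries, 1139 in the untreated deficient library and 2526 (127.7 CPM) in the doxorubicin deficient one. It was at least 975-fold higher. Its log2 ratio was the highest of genes with a mean of at least 5 CPM, unnamed transcripts and pseudogenes aside. Birc5 (survivin) had 93 and 2140 counts (26.6-fold, 21.6 to 33.1).

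All 11 kinetochore and checkpoint genes were higher, from Mad2l1 (407 and 1152 counts, log2 ratio 1.66) to Ndc80 (4 and 699 counts, 4.95). Cenpf, a large kinetochore protein of late cell cycle, had 105 and 2854 counts (31.5-fold, 25.9 to 38.6). Spindle motors and midzone genes were higher in 7 of 7 cases. Kif2c, a microtubule-depolymerizing kinesin, had 0 counts in the wild-type doxorubicin library and 1021 in the deficient one (at least 394-fold), whereas the untreated wild-type library had 91. Kif20a had 41 and 1850 counts (52.2-fold, 38.4 to 73.0).

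Exit and cytokinesis genes were higher in 5 of 6 cases, with Ube2c, the ubiquitin-conjugating enzyme of the anaphase-promoting complex, at 117 and 3039 counts (30.1-fold, 25.0 to 36.5). The exception on the whole list was Pttg1, securin, with 1772 counts in the wild-type library and 1073 in the deficient one (log2 ratio -0.50). Its untreated values, 1456 and 1090, lay in the same order. The transcription factors Foxm1 (113 and 944 counts, 9.67-fold) and Mybl2 (101 and 375, 4.30-fold), which drive late cell-cycle genes, were higher, as were all 5 condensation genes. Top2a, the topoisomerase that doxorubicin poisons, had 270 counts (11.8 CPM) in the wild-type library and 3774 (190.8 CPM) in the deficient one (16.2-fold, 14.3 to 18.4).

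**Figure D2:**
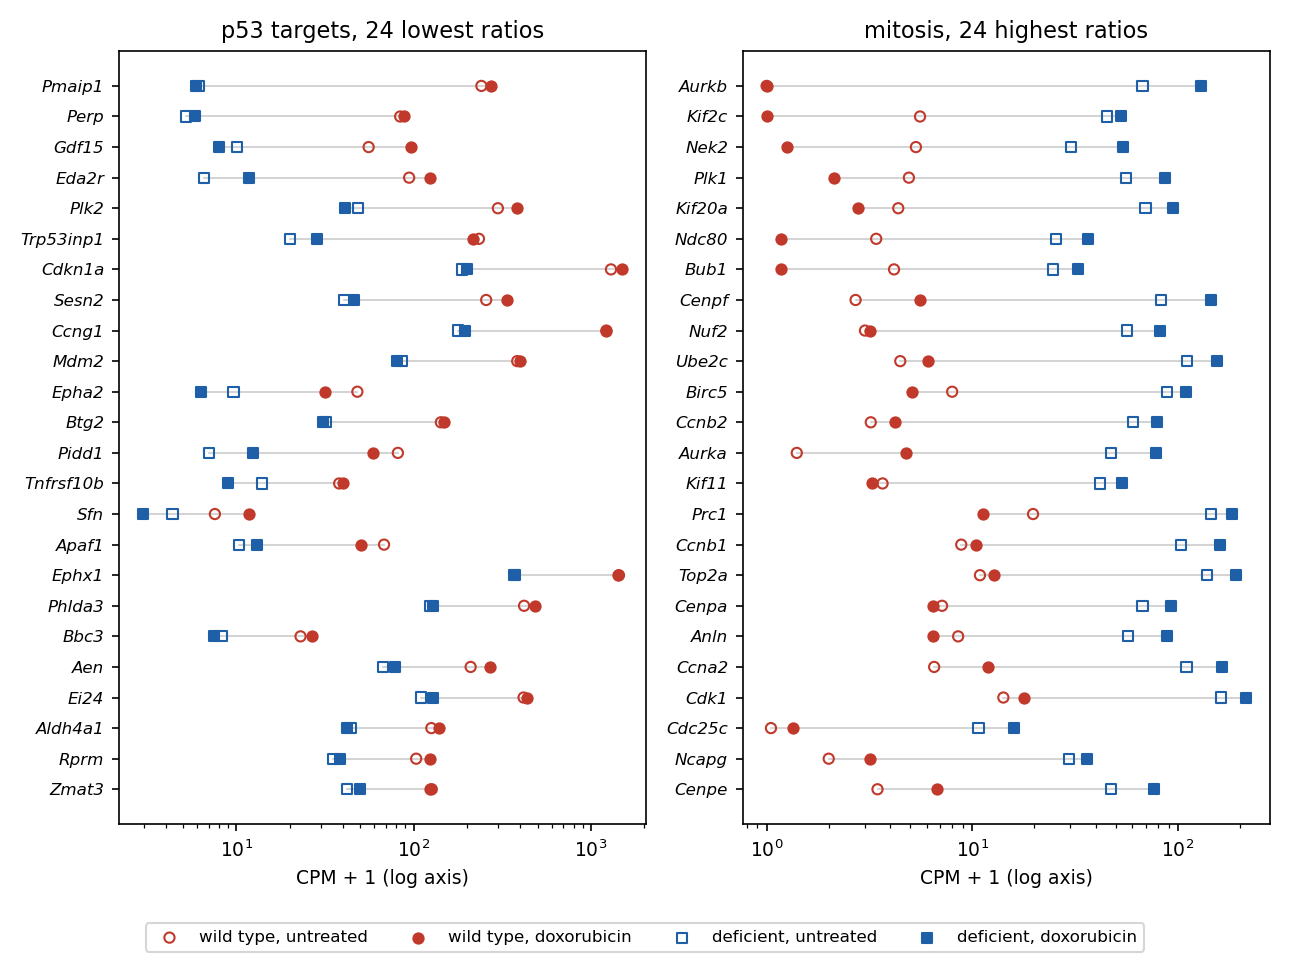
Levels (CPM + 1, log axis) in each of the 4 libraries for the 24 p53 targets with the lowest and the 24 mitotic genes with the highest ratio in the doxorubicin pair; circles are wild-type and squares deficient libraries, filled with doxorubicin and open without. Open and filled symbols of one genotype label lie near each other for p53 targets (Cdkn1a 1495 and 198.5 CPM in the doxorubicin pair), and all deficient symbols lie right of the wild-type ones for mitosis.

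DNA replication genes were higher in 30 of 35 cases and 0 were lower, against 10.7% and 9.55% of all genes. Their median log2 ratio was 1.63, less than the mitotic median. Of the genes that load and start the replicative helicase, 14 of 17 were higher. Mcm5, a helicase subunit, had 288 and 1907 counts (7.67-fold, 6.77 to 8.71), and its partner Mcm7 had 1350 and 2345, just under the threshold at a log2 ratio of 1.00 when rounded. Mcm10 had 0 and 337 counts (at least 130-fold), with 12 in the untreated wild-type library. Cdc6, a loader of that helicase, had 17 and 352 counts (24.0-fold, 14.8 to 41.6).

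Polymerase and fork genes were higher in 11 of 13 cases, with Lig1, the ligase of lagging-strand synthesis, at 117 and 1276 counts (12.6-fold, 10.4 to 15.4) and the sliding clamp gene Pcna at 1746 and 3684 (2.44-fold, 2.31 to 2.59). All 5 genes of nucleotide supply were higher, among them Rrm2, the regulated subunit of ribonucleotide reductase, at 1330 and 5624 counts (4.90-fold, 4.61 to 5.20). Rrm2b, its p53-induced counterpart, had a log2 ratio of -0.79.

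G1 regulators split. Of 24 measured, 10 were higher and 2 lower (10.7% and 9.55% of all genes), with a median of 0.88. The E cyclins Ccne1 (95 and 497 counts, 6.06-fold) and Ccne2 (191 and 723, 4.38-fold) were higher, while the D cyclins Ccnd1, Ccnd2 and Ccnd3 had log2 ratios of -0.84, -0.36 and 1.00, the last just under the threshold. The CDK4/6 inhibitors Cdkn2c (p18) and Cdkn2d (p19) were higher, at 426 and 1510 and at 300 and 1710 counts (4.10-fold and 6.60-fold), whereas Cdkn2b (p15) had 2140 and 1115 counts and a log2 ratio of -0.72. Cdkn1c (p57) was lower, at 333 and 98 counts, and Cdkn1b (p27) had a log2 ratio of 0.79. Cdkn2a, the p16 and p19ARF gene, had 6 and 22 counts and did not enter.

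The pocket proteins, which hold E2F factors inactive, went in different directions. Rbl2 (p130), found in resting cells, had 2808 and 869 counts (2.79-fold lower, 2.59 to 3.02), and Rbl1 (p107), an E2F target, had 188 and 365 (2.25-fold higher, 1.88 to 2.69). Rb1 had 1422 and 966 counts and a log2 ratio of -0.34. The repressor E2f8 had 22 and 371 counts (19.5-fold higher, 12.7 to 31.5), and E2f1 had a log2 ratio of 0.46.

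Genes of DNA damage sensing and repair numbered 37, of which 12 were higher and 1 was lower (10.7% and 9.55% of all genes). The higher ones were concentrated by role: 11 of 12 homologous recombination and Fanconi genes, 1 of 12 sensors and kinases (H2afx, which encodes the histone variant phosphorylated at breaks, log2 ratio 1.41), and 0 of 13 excision and end-joining genes. Exo1, an end-resecting nuclease, had 19 and 396 counts (24.1-fold, 15.2 to 40.5). Brca1 had 123 and 265 counts (log2 ratio 1.18), less apart than in the untreated pair, where it had 5 and 252. The mismatch repair gene Msh6 was the exception, at 3540 and 743 counts (4.12-fold lower, 3.80 to 4.46).

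Within the OASIS family, Creb3l1 was the 1 gene of 6 called. Creb3, Creb3l2 and Creb3l4 had log2 ratios of 0.14, 0.70 and 0.85, and the proteases Mbtps1 and Mbtps2 had 0.14 and -0.52. Of 8 measured genes that have been reported as OASIS targets, Cdkn1a was the 1 called. That is 12.5% lower, near the 9.55% of all genes. The collagen genes Col1a1 (2162 and 1781 counts, log2 ratio -0.07) and Col1a2 (1122 and 1873, 0.94), the coat genes Sec23a and Sec24d (0.13 and 0.15), the chaperone Hspa5 (0.11), the sulfotransferase Chst3 (0.01) and Vegfa (-0.49) stayed inside 2-fold. Gcm1 had 0 and 8 counts and Muc2 0 and 0, and neither entered.

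The unfolded protein response, which OASIS relatives such as ATF6 serve, showed 1 of 22 genes lower and 0 higher, fewer on each side than the 9.55% and 10.7% of all genes. Its median log2 ratio was 0.12. The called gene was Edem1, which sends misfolded glycoproteins to degradation, with 1503 and 610 counts (2.13-fold lower, 1.94 to 2.34). Atf4, Atf6 and Xbp1, the transcription factors of the response, had log2 ratios of -0.01, 0.66 and 0.48. Of 16 genes of COPII and COPI vesicle coats 0 were called, with ratios from -0.90 (Sec24a) to 0.45 (Cope).

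Extracellular matrix genes were called in both directions, 5 higher and 7 lower of 46 (10.9% and 15.2%, against 10.7% and 9.55% of all genes), with a median of -0.09. Among the collagens, Col11a1 (1174 and 2450 counts) and Col6a2 (162 and 538) were higher and Col18a1, a basement membrane collagen, lower (2057 and 509, 3.49-fold). Eln, elastin, had 63 and 311 counts (5.71-fold higher, 4.35 to 7.62). Acan, the proteoglycan aggrecan, had 0 counts in the wild-type doxorubicin library and 126 in the deficient one (at least 48.6-fold higher), against 65 and 157 in the untreated pair. Enzymes of matrix turnover made up 4 of the 7 lower genes, among them the gelatinase Mmp2 (1229 and 357 counts, 2.97-fold, 2.64 to 3.36) and the stromelysin Mmp3 (91 and 19 counts).

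Genes of the senescence secretome, the inflammatory factors that arrested cells release, were lower in 14 of 28 cases and higher in 1. Over all genes, 9.55% were lower and 10.7% higher. The median of the list was -1.01. Of 9 chemokine genes 6 were lower, including the neutrophil attractant Cxcl1 at 234 and 2 counts, Cxcl12 at 694 and 104 (5.76-fold, 4.68 to 7.15) and Ccl2 at 497 and 76. The epidermal growth factor family members Ereg (83 and 0 counts, at least 23.9-fold) and Hbegf (14657 and 6248, 2.03-fold) were lower too. Gdf15 is on this list and on that of p53 targets. The 1 higher gene was Igfbp5, a binding protein of insulin-like growth factors, with 5381 counts (235 CPM) in the wild-type library and 17983 (909 CPM) in the deficient one (3.87-fold, 3.75 to 3.99).

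Interferon-response genes were lower in 7 of 20 cases and higher in 1 (9.55% and 10.7% of all genes). Xaf1 (597 and 93 counts, 5.55-fold lower, 4.45 to 6.98) and Ifit1 (700 and 116, 5.21-fold lower, 4.28 to 6.4) led, and Irf9 (382 and 715) was higher. Ifit1 differed less in the untreated pair, at 291 and 162 counts. Among 10 genes of MHC class I presentation, 2 were lower: the peptide transporter Tap1 (2260 and 510 counts, 3.83-fold, 3.48 to 4.22) and Nlrc5, a transactivator of these genes (176 and 33).

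Immediate early and NF-kB genes were lower in 5 of 22 cases, against 9.55% of all genes. Fosl1, an AP-1 subunit, had 1309 and 79 counts (14.3-fold, 11.4 to 18.2), and Egr1 had 2049 and 400 (4.43-fold, 3.97 to 4.94). Tnfaip3 and Rel of the NF-kB pathway had log2 ratios of -1.51 and -1.56. Bcl3, a nuclear partner of NF-kB p50, was the 1 higher gene, with 2 counts in the wild-type doxorubicin library and 149 in the deficient one, a ratio of 86.2 (23.5 to 719). In the untreated pair Bcl3 had 78 and 192 counts.

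NRF2 directs the oxidative stress response by inducing enzymes of glutathione synthesis and detoxification. Of 22 genes of this group 13 were lower in the deficient library and 1 was higher (9.55% and 10.7% of all genes). The median was -1.25 against 0.02 over all genes. The factor gene Nfe2l2 (9480 and 6593 counts, log2 ratio -0.31) and its inhibitor Keap1 (0.15) were not called. Of 10 target genes 8 were lower. Nqo1, a quinone reductase, had 18240 counts (796.6 CPM) in the wild-type library and 2203 (111 CPM) in the deficient one (7.15-fold, 6.84 to 7.48). Slc7a11, the cystine importer, had 3315 and 329 counts (8.70-fold, 7.77 to 9.78), and Srxn1, which repairs peroxiredoxins, had 17792 and 2685 (5.72-fold, 5.50 to 5.96). The untreated libraries ordered these genes alike, with Nqo1 at 17182 and 2660 counts.

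Glutathione transferases were lower in 5 of 10 cases. Gsta1 had 2329 and 25 counts and Gsta2 255 and 14, but these near-identical copies can share reads and their separate values are uncertain. Gsta4 had 17340 and 3589 counts (4.17-fold lower, 4.03 to 4.33) and Gstp1 17144 and 6513 (2.27-fold lower, 2.21 to 2.34). Gstm1, the most abundant at 70677 and 40647 counts, had a log2 ratio of -0.59, and Gstt1 was higher (1.03).

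Other metabolic groups differed little. Of 19 cholesterol synthesis genes 0 were called, yet 16 had ratios above 0 and the median was 0.52, with Hmgcs1 highest at 0.94. Of 18 glycolysis genes 0 were called, from Pfkl (-0.45) to Pfkm (0.84). The 13 mitochondrially encoded genes ranged from -0.14 to 0.79.

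Nuclear lamina genes included 4 higher and 0 lower of 12, against 10.7% and 9.55% of all genes. Lmnb1, lamin B1, whose loss is a common mark of senescent cells, had 138 counts (6.03 CPM) in the wild-type library and 1151 (58.2 CPM) in the deficient one (9.66-fold, 8.09 to 11.6). In the untreated pair it had 53 and 665. Lmnb2, Tmpo and Syne2 had log2 ratios of 1.65, 1.31 and 1.86.

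**Figure D3:**
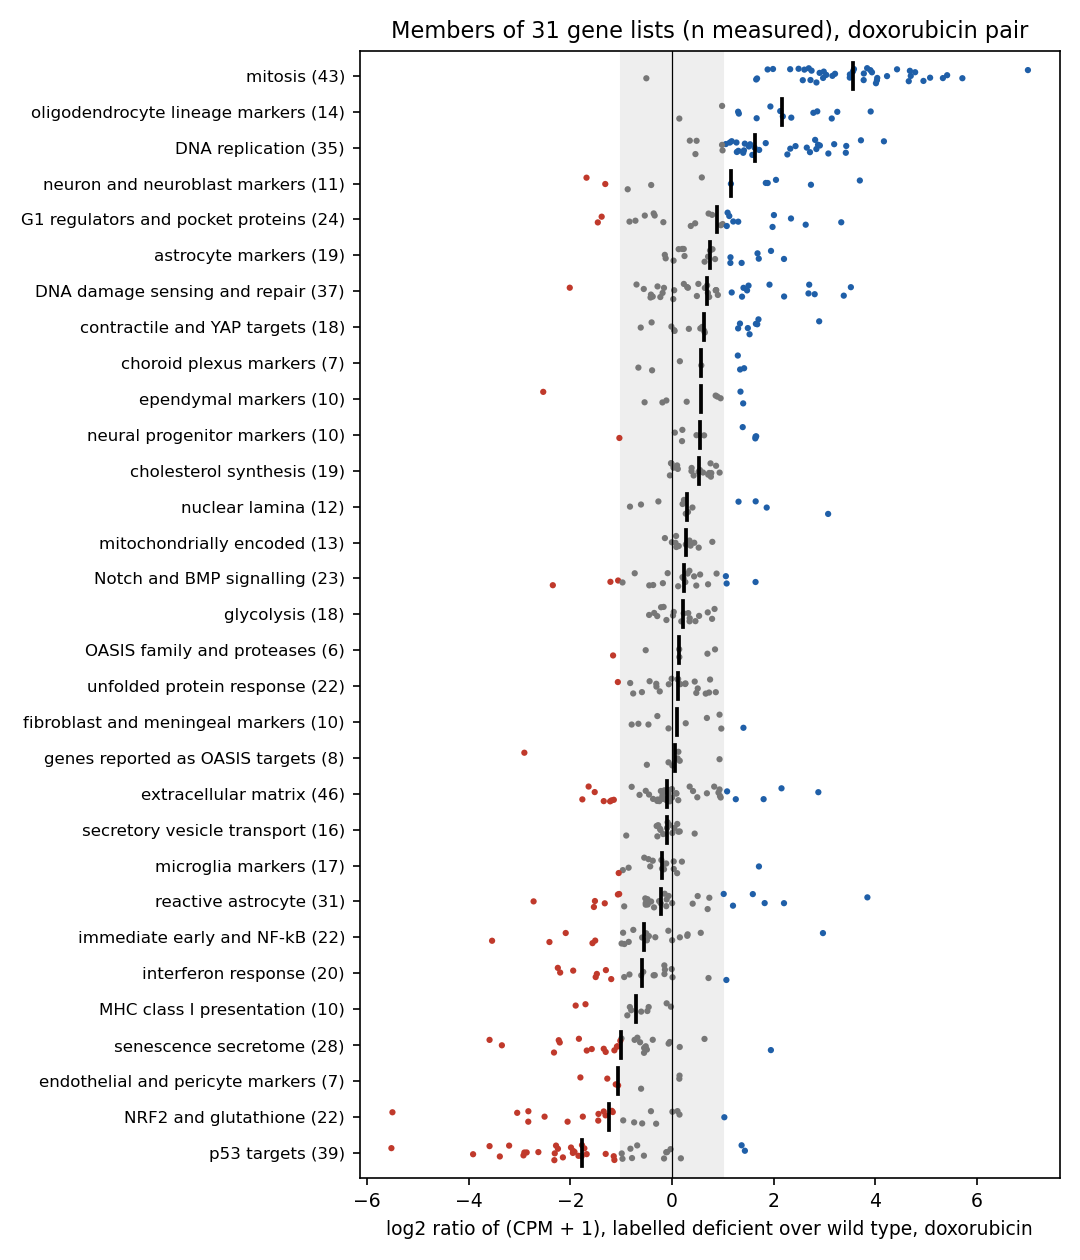
Log2 ratio of (CPM + 1), deficient over wild type with doxorubicin, for each measured member (point) of 31 gene lists, with the list median as a black bar and the range inside 2-fold shaded. The median of mitosis lies at 3.56 and that of p53 targets at -1.78, and the lists for glycolysis, cholesterol synthesis, vesicle transport and mitochondrially encoded genes have 0 members outside the shading.

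Of 19 astrocyte markers 7 were higher and 0 lower (10.7% and 9.55% of all genes), with a median of 0.75. Gfap (chr11:102887336-102900912), the intermediate filament of astrocytes, had 25639 counts (1120 CPM) in the wild-type library and 102215 (5168 CPM) in the deficient one (4.62-fold, 4.55 to 4.68). This was the largest gain in CPM of any gene called higher, unnamed transcripts and pseudogenes aside. Aqp4, the water channel of astrocyte endfeet, had 8901 and 24754 counts (3.22-fold, 3.14 to 3.30), and the potassium channel Kcnj10 1117 and 3784 (3.92-fold, 3.67 to 4.20). Slc1a2 and Slc1a3, the glutamate transporters, had log2 ratios of 0.75 and 0.80, and Apoe, Clu and Mlc1 had ratios within 0.15 of 0.

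Reactive astrocyte genes did not share a direction, with 6 of 31 higher and 6 lower (10.7% and 9.55% of all genes). Beside Gfap, the transglutaminase Tgm1 was higher (37 and 725 counts, 22.7-fold, 16.3 to 32.5), as was S1pr3 (2482 and 6501). Lcn2, the secreted lipocalin, had 44865 counts (1959 CPM) in the wild-type library and 13532 (684 CPM) in the deficient one (2.86-fold lower, 2.81 to 2.92), and complement C3 had 16750 and 7028 (2.06-fold lower). Ptgs2, inducible cyclooxygenase, had 534 and 53 counts (8.70-fold lower, 6.56 to 11.8), and the untreated pair had 454 and 176.

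Contractile genes were higher in 7 of 10 cases, against 10.7% of all genes. Acta2 (smooth muscle actin) had 35484 counts (1550 CPM) in the wild-type library and 99837 (5048 CPM) in the deficient one (3.26-fold, 3.22 to 3.30). Cnn1, calponin, had 1426 and 9311 counts (7.56-fold, 7.15 to 8.0), and Myl9 6089 and 16885 (3.21-fold, 3.12 to 3.31). Of 8 measured genes of YAP and its targets 1 was higher, Ccn2 (12426 and 26505 counts, 2.47-fold, 2.42 to 2.52). That is 12.5%, near the 10.7% of all genes.

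Notch and BMP genes were called 3 higher and 3 lower of 23 (13% each, near the 10.7% and 9.55% of all genes). The Notch target Hes5 (44 and 161 counts) and the BMP target Id3 (18391 and 33511 counts, 2.11-fold, 2.07 to 2.15) were higher, and the ligand Jag2 was lower (376 and 48, 6.77-fold, 5.00 to 9.34). Notch3 and Bmp2 were lower with log2 ratios of -1.06 and -1.21.

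Some markers of other cell types also differed between the libraries. Of 14 oligodendrocyte-lineage markers 12 were higher in the deficient library, against 10.7% of all genes, with a median of 2.16. Olig2, a lineage transcription factor, had 543 and 1853 counts (3.95-fold, 3.59 to 4.35), the precursor receptor gene Pdgfra 26 and 354 (15.8-fold, 10.6 to 24.5), and the myelin gene Mbp 318 and 2119 (7.71-fold, 6.85 to 8.71). Sox10 had 0 and 278 counts (at least 107-fold). Of these 14 markers, 5 were at 0 in the wild-type doxorubicin library, and 0 in the deficient one. The same list had a median of 1.73 in the untreated pair.

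Of 11 neuron and neuroblast markers 6 were higher and 2 lower. Dcx, a marker of migrating neuroblasts, had 0 and 237 counts (at least 91.5-fold), Tubb3 522 and 1674, and the neurofilament gene Nefm 307 and 69. Of 17 microglial markers 1 was higher (Tmem119, 112 and 362 counts) and 1 was lower (Laptm5, 3598 and 1492). At 5.88% each, these lie below the shares of all genes. Of the 17, 12 had ratios below 0 and 5 above, with a median log2 ratio of -0.20. Cx3cr1 and Aif1, both above 0, had log2 ratios of 0.20 and 0.04. Of 10 progenitor markers 4 were higher, among them Fabp7 (11628 and 26406 counts), and 1 was lower, Egfr (1564 and 649). Of 7 endothelial and pericyte markers 0 were higher and 4 were lower, at sums of 74.1 and 40.8 CPM. Ependymal markers were called 2 higher and 1 lower of 10, choroid plexus markers 3 higher and 0 lower of 7, and fibroblast markers 1 higher (Pdgfrb) and 0 lower of 10. Of all genes, 10.7% were higher and 9.55% lower, so 1 call among 10 markers lies near those shares. The part of these cell types in the differences above was not tested.

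Several of the lowest ratios belonged to none of these groups. St14 (chr9:31089402-31131853), which encodes the epithelial serine protease matriptase, had 2795 counts (122 CPM) in the wild-type library and 2 in the deficient one, a 1207-fold difference with a wide interval (334 to 9973), and 1935 and 0 in the untreated pair. Cited4, a transcriptional cofactor, had 668 and 4 counts, the axon guidance receptor Robo3 527 and 2, and the phosphatase subunit gene Ppp2r2c 976 and 18. Pm20d1, an enzyme of N-acyl amino acid synthesis, had 2577 and 105 counts (21.2-fold, 17.4 to 26.0). Ckmt1 had 1915 and 46 counts. Acaa1b (1014 and 25) has a near-identical copy, which makes its value uncertain. Sharing of reads with related genes was not tested for either. Among abundant genes, Serpine2, a serpin that inhibits thrombin, had 37465 and 9503 counts (3.41-fold lower, 3.33 to 3.48), Esd 33820 and 8090 (3.61-fold lower, 3.52 to 3.70) and Chil1 48434 and 20096 (2.08-fold lower, 2.05 to 2.12).

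Unnamed transcripts and pseudogenes aside, the highest ratios outside the mitosis list at a mean of at least 5 CPM were those of genes also known from dividing cells. Pimreg, a mitotic regulator, had 3 and 1561 counts, Iqgap3 2 and 1260, Cdca3 53 and 2046 (44.7-fold, 34.0 to 59.9) and Ckap2l, a spindle protein, 63 and 2047 (37.6-fold, 29.3 to 49.1). Among abundant genes, Tuba1a, an alpha-tubulin, had 56938 and 108685 counts (2.21-fold, 2.19 to 2.23), and Tmsb4x, an actin-sequestering peptide, 43132 and 80091 (2.15-fold, 2.12 to 2.17).

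The untreated pair, which shares no library with the doxorubicin pair, was used to see which ratios recur under the same genotype labels. Without doxorubicin, 9.79% of all genes were higher and 10.2% lower. Of the genes higher with doxorubicin, 899 (53.83%) were also higher without it, which is 58.87% of those higher without it. Of the genes lower with doxorubicin, 806 (54.09%) were lower in both pairs, which is 50.76% of those lower without it. Opposite calls numbered 43 and 27. Large ratios recurred more often: of 405 genes at least 4-fold higher, 328 (80.99%) were at least 2-fold higher untreated, and of 333 at least 4-fold lower, 271 (81.38%) were at least 2-fold lower untreated.

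Across the 15596 genes, which are not independent replicates, the ratios of both pairs correlated with a Pearson r of 0.69 and a Spearman rho of 0.61. The Pearson value was 0.39 for genes at a mean of 1 to 2 CPM and 0.92 for genes above 100 CPM. The genes farthest apart between the pairs were mostly scarce in 1 library. Wdr62, a spindle pole protein, had 16 and 387 counts with doxorubicin and 222 and 127 without. In the other direction, Postn (periostin) had 219 and 152 counts with doxorubicin and 2 and 223 without, and Apol9b 285 and 40 with and 51 and 71 without. These differences between pairs were not tested, and the pairs also differ in the sex-linked genes described above.

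**Figure D4:**
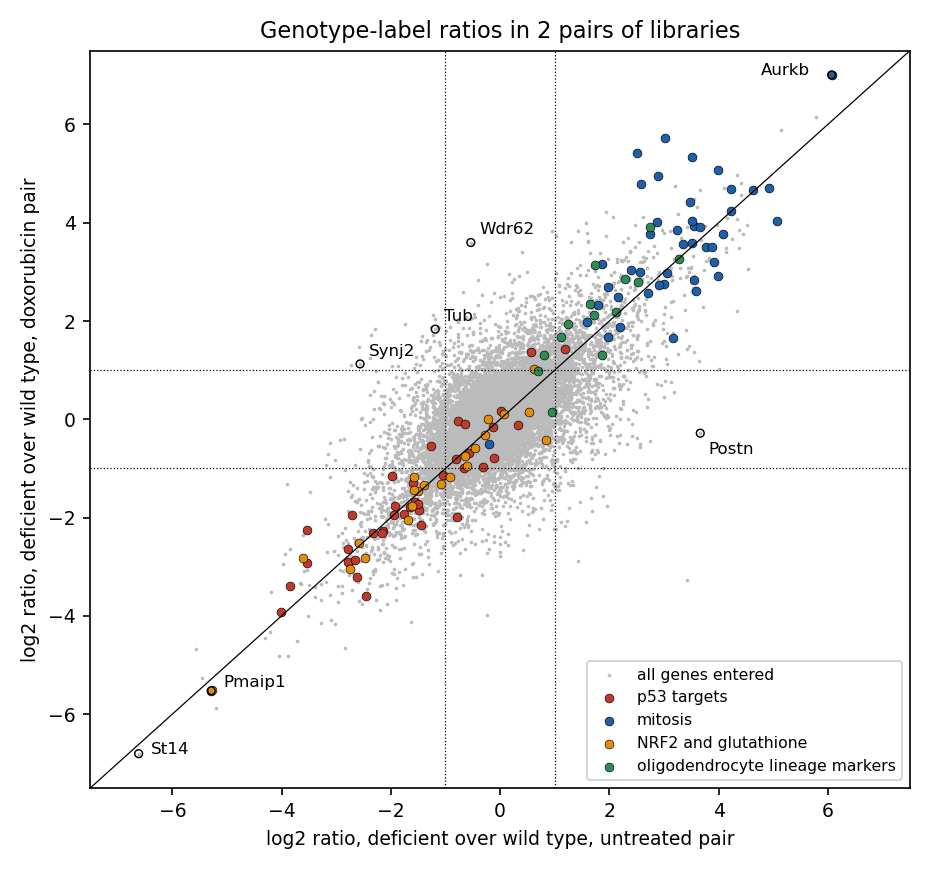
Log2 ratio of (CPM + 1), deficient over wild type, in the untreated pair (x axis) and the doxorubicin pair (y axis) for 15596 genes, with members of 4 groups coloured and dotted lines at 2-fold. Mitotic genes lie at the upper right and p53 targets mostly at the lower left, near the line of equal ratios, while Synj2 and Tub were higher with doxorubicin and lower without it.

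Some genes were counted in 1 library of the pair alone. In the deficient library, 34 genes reached at least 5 CPM with 0 counts in the wild-type library, and 33 of them have names, among them Aurkb, Kif2c, Mcm10, Sox10 and Dcx. In the reverse direction, 41 genes reached 5 CPM with 0 counts in the deficient library, of which 25 have names. Krtap1-5, a hair keratin-associated protein, led these with 623 and 0 counts (at least 179-fold lower, with 273 and 0 untreated). Tert, the catalytic subunit of telomerase, had 128 and 0 counts (at least 36.9-fold lower), and its untreated counts of 31 and 20 did not show that gap.

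The calls were spread over the genome and over gene types, with some unevenness. On the X chromosome 65 of 519 genes were higher (12.5%) and 30 lower (5.78%), against 10.7% and 9.68% of autosomal genes. Long intergenic noncoding RNAs were lower in 50 of 272 cases (18.4%) and antisense RNAs in 59 of 325 (18.2%), against 8.99% of protein-coding genes. The kit named in the labels usually marks no strand, so reads of an antisense RNA and its partner cannot be told apart. When protein-coding genes were cut into 5 bins by exonic length, the share lower went from 12% in the shortest to 5.65% in the longest, while the share higher stayed between 10.4% and 12%.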

How the data were processed

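RNA-seq of 4 libraries (1 per genotype and treatment label) was used. The authors deposited, per the file headers, 1 table per library with an estimated count (expected count) and a TPM value for each of 55487 gene identifiers. Per the submitters' processing notes, DRAGEN was used and the build was GRCm38; its version, the annotation release and any filters: not given in the sources used here. Per the labels' protocols, libraries came from a SMART-Seq v4 kit, and such libraries usually mark no strand. The deposited counts hold fractions in 5810 to 6451 genes per library and were rounded. TPM, scaled by the authors for length and depth, served as an alternative. GENCODE's GRCm38 annotation gave symbols and coordinates (55227 identifiers matched, 260 did not), and promoters from RefSeq.

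Counts were scaled to CPM with TMM factors of edgeR 4.0.16 (0.98 to 1.02) in R 4.3.3, and ratios were computed in Python 3.11.15. Total counts were 17481188 to 22559613 and the share of mitochondrial genes 1.49 to 1.67%. The floor of 3 counts came to 0.131 and 0.152 CPM in the doxorubicin pair. Without molecular identifiers, reads may repeat a molecule, and every interval or floor covers only counting error. The steps were tested on simulated data.

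The gene lists, members and naming rule were chosen with earlier results of these data known. Named were Creb3l1 and Cdkn1a; the 10 highest and 10 lowest ratios at a mean of at least 5 CPM; the 10 largest gains and losses in CPM; the list members with the largest ratios; and the 5 genes with the largest difference between pairs in each direction. A few list members near a ratio of 0 and genes at 0 in 1 library were named after their values were seen. Unnamed transcripts and pseudogenes were counted but not named, and some genes the rule selects are not reported here. Alternatives were DESeq2 1.42.0 size factors, total counts, TMM of 2 libraries, TPM, other pseudocounts and other minimum levels.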

Additional observations from a re-analysis of the deposited data

Results flagged for a closer look

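Of the genes named for the largest difference between pairs, 2 went in opposite directions by at least 2-fold. Synj2, an inositol phosphatase of membrane traffic, was higher in the deficient library with doxorubicin (83 and 180 counts, log2 ratio 1.13) and lower without it (303 and 30 counts, log2 ratio -2.56). Tub, which carries receptors into cilia, was higher with doxorubicin (40 and 174 counts, log2 ratio 1.83) and lower without it (144 and 45 counts, log2 ratio -1.19). Neither difference was tested, since each pair holds 1 library a side.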

How the results depend on the processing

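No paired analysis was possible because each group holds 1 library, and no library could be left out. The counts of 1670 higher and 1490 lower genes stayed within 1.5-fold with DESeq2 size factors, total counts, TMM of 2 libraries, TPM (1237 and 1559), a pseudocount of 0.5 CPM, no minimum, a minimum over the doxorubicin pair and, both added after the data were seen, without X and Y or with protein-coding genes alone. A pseudocount of 5 CPM gave 861 and 629, and a minimum mean of 5 CPM gave 1137 and 824. Of 288 list medians (32 lists under 9 settings), 23 moved by over 0.25. On TPM, medians were 3.21 for mitosis, 0.56 for G1 regulators, 0.32 for DNA damage and repair, -0.13 for the OASIS family (0.14 in the report, so the sign changed), 1.84 for the oligodendrocyte lineage, -0.49 for endothelium and 0.25 for ependyma. In all, 6 medians had another sign: the OASIS family; reported OASIS targets on TPM (-0.07); fibroblast markers (0.10 in the report) on TPM (-0.04) and, at -0.07 each, with a minimum of 5 CPM or over the doxorubicin pair; and sex-linked genes, from 0 (below). With a pseudocount of 5 CPM they were 2.82 for mitosis, -0.60 for the senescence secretome, 1.54 for the oligodendrocyte lineage, 0.69 for neurons, -0.58 for endothelium and 0.32 for ependyma, and with 0.5 CPM 2.53 for the oligodendrocyte lineage. A minimum of 5 CPM gave -0.66 for the secretome, 0.87 for neurons and 0.09 for ependyma; no minimum gave -0.75, 0.87 for neurons and -0.50 for endothelium; the minimum over the doxorubicin pair gave 1.8 for neurons, 0.29 for ependyma and 0.29 for sex-linked genes. The cause was not tested. Of 1338 values for 223 named genes, 218 moved beyond their counting interval and 0 reversed. Depth limits genes at few counts: the interval for St14 spans 334 to 9973.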

Other observations

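The groups below were noticed after the values were seen, so their counts are descriptions. Genes known from the totipotent 2-cell stage of the mouse embryo were counted in the wild-type libraries and nearly absent from the deficient ones. The 6 genes Zscan4a to Zscan4f summed to 776 counts in the wild-type doxorubicin library and 0 in the deficient one (at least 223-fold lower), and to 348 and 4 in the untreated pair. The Usp17la to Usp17le copies summed to 589 and 0 counts with doxorubicin (at least 170-fold lower) and 181 and 0 without. Tcstv1 had 90 and 0 counts and Duxf3 20 and 0. Members of each family are near-identical, so sums are firmer than single genes.

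Epithelial genes were lower in 17 of 22 measured cases and higher in 1, against 9.55% and 10.7% of all genes. Beside St14, they included the keratin Krt19 (475 and 31 counts), the cystatin Cst6 (1481 and 54), the transcription factor Grhl3 (184 and 0) and Klf4 (852 and 50). Perp and Sfn are also p53 targets. Cdh1, epithelial cadherin, was at 0 in both doxorubicin libraries, Epcam had 12 and 0 counts, and Krt18 was the 1 higher gene (0 and 35 counts).

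Clustered histone genes went both ways, 25 lower and 6 higher of 46, against 9.55% and 10.7% of all genes. Hist1h2ac had 3231 and 263 counts, Hist1h4h 3638 and 447, and the linker histone Hist1h1c 27037 and 8474, all lower in the deficient library. Hist1h2ap (1185 and 8309 counts) and Hist1h2ag (55 and 349) were higher. Of 10 H4 genes 9 were lower, and of 10 H2A genes 4 were higher and 2 lower. Near-identical copies can share reads here. How fully the library kit captures transcripts of these genes was not tested, so the counts need not follow histone expression.

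Metallothioneins, which bind zinc and copper, were higher in 3 of 3 measured cases, against 10.7% of all genes. Mt1 had 11305 and 38644 counts (3.96-fold, 3.88 to 4.04), Mt2 1801 and 13568 (8.72-fold, 8.30 to 9.17) and Mt3 10582 and 19836. Of 6 noncoding RNAs linked to p53, 4 were lower, against 9.55% of all genes. These were Trp53cor1 (726 and 58 counts), Snhg15 (1361 and 147), Lncpint (367 and 53) and Pvt1 (366 and 127). Neat1 and Meg3 had log2 ratios of 0.39 and 0.58.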
